A study of Homo sapiens with 3 samples.

Results

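MicroRNA host genes are long noncoding RNA genes whose primary transcripts carry microRNA hairpins. They were taken here as the genes of the GENCODE biotype lncRNA whose symbol starts with MIR and ends with HG, and 83 of the 61193 genes in the tables, or of the 17557 lncRNA genes, met this rule. The rule used the name and the biotype only, not the measured values. RNA-seq was performed on HEK293T, a human embryonic kidney line into which the SV40 large T antigen was brought, in 3 replicates of 1 condition, which served the study as the expression side of its maps of i-motifs (iMs) and G-quadruplexes (G4s). Each replicate was total RNA made into a QuantSeq 3′ mRNA-seq library, which is primed at the poly(A) tail, and the sample labels call the material genomic DNA. No other condition was measured, so the results are levels with their spread and no groups were compared. All replicates are of a single established line, which limits them as a model of kidney tissue.

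A microRNA is cut from a hairpin in a longer primary transcript, first in the nucleus by the Microprocessor (DROSHA with DGCR8) and then in the cytoplasm by DICER1, and is loaded into an Argonaute protein. It guides this protein to mRNAs that pair with its seed, the bases next to its 5′ end, so that microRNAs with the same seed share many targets. A hairpin in an exon is cut out of the host RNA itself, while a hairpin in an intron can be released with the host RNA left intact. A poly(A)-primed library reads the polyadenylated 3′ end of the host RNA and not the mature microRNA. Its reads do not show whether the host was spliced or the hairpin cut out.

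The name was checked against the annotation. An annotated microRNA gene lay wholly inside the host on the same strand in 81 of the 83 members. MIR7515HG held one on the opposite strand only, and MIR670HG held none. The members carried 131 microRNA genes in all, with a single one in 54 members, a pair in 17 members and 3 or more in 10 members, up to 10 in MIR493HG. In the canonical transcript of the host, 94 of the hairpins lay in an intron, 21 in an exon, 8 across an exon edge and 8 outside the transcript. MIR7515HG, MIR670HG and MIR493HG were named after their values were seen.

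The mature sequences of the most abundant hosts show which products these loci encode. They were taken from RefSeq on GRCh38 and are written 5′ to 3′ with the seed (bases 2 to 8) in capitals. Mature sequences were used for 121 of the 131 microRNA genes, which does not show that RefSeq lacks the others. MIR222HG encodes the pair miR-221 and miR-222, whose seeds are identical, MIR34AHG encodes miR-34a, MIR193BHG encodes miR-193b and miR-365a, and MIR1915HG encodes miR-1915.
miR-221-3p: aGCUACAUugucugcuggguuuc
miR-222-3p: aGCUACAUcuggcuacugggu
miR-34a-5p: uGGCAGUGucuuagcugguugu
miR-193b-3p: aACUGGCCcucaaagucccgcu
miR-365a-3p: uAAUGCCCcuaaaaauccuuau
miR-1915-3p: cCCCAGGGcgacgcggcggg

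The let-7 family is the largest group of hosts that share a seed, and its sequences are shown because their hosts spread from 0 counts to above 1 transcript per 1000000 (TPM). The seed GAGGUAG was found in 8 mature microRNAs from 7 members. Of these sequences, let-7a, let-7f and let-7d come from MIRLET7A1HG, let-7c from MIR99AHG, let-7i from MIRLET7IHG and let-7b from MIRLET7BHG, which holds another copy of let-7a.
let-7a-5p: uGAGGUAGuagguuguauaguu
let-7f-5p: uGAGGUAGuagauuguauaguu
let-7d-5p: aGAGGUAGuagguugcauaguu
let-7c-5p: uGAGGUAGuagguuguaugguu
let-7i-5p: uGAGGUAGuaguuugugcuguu
let-7b-5p: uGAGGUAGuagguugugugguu
miR-4500: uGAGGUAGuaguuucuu

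The miR-17-92 cluster of MIR17HG, a known oncogenic polycistron, is shown because its host, although well known, had counts close to the limit of detection. Its members miR-17 and miR-20a share a seed, miR-18a differs from them within it, and miR-92a shares its seed with miR-367 of MIR302CHG.
miR-17-5p: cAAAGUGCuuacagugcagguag
miR-20a-5p: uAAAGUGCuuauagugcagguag
miR-18a-5p: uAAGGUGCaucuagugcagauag
miR-19a-3p: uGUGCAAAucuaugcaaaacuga
miR-92a-3p: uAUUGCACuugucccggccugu

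The libraries held between 6262175 and 8521624 reads counted on transcripts, and the 3 counts that a value of 0 leaves possible were 0.352 to 0.479 counts per 1000000 (CPM). Genes of the mitochondrial genome took 9.59%, 5.70% and 25.8% of the counts in replicates 1, 2 and 3, and replicate 3 stands apart by this share. Levels between genes were compared in TPM, where the count of a transcript is divided by its length and rescaled to 1000000 per library. Intervals and limits given below cover counting error only, since the reads carry no molecular identifiers and may stem from the same molecule, and in a bulk sample fewer cells with an RNA and less RNA per cell cannot be told apart.

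The level of the host genes was unevenly spread over the members. The 83 members together had 4932 counts, and their summed level was 144, 122 and 147 TPM in replicates 1, 2 and 3, or 138 ± 14.0 TPM (SD, n = 3). This was 0.439% ± 0.0648 (SD, n = 3) of the TPM of all lncRNA genes, and the members are 83 of the 17557 lncRNA genes. The share of the level was thus close to their share by number. The 4 most abundant members held 66.9% of the summed level. A mean of at least 1 TPM, taken as expressed, was reached by 16 of the 83 members (19.3%), compared with 15.2% of all lncRNA genes and 21.7% of all genes. Of the members, 13 reached 1 TPM in every replicate and 4 had a mean of at least 10 TPM. The expressed members had a median of 3.87 TPM, compared with 3.58 TPM for expressed lncRNA genes and 6.55 TPM for all expressed genes. Another 24 members had counts but a mean under 1 TPM. The remaining 43 (51.8%) had no count in any replicate, as had 59.8% of all lncRNA genes and 57.1% of all genes. The median member thus stood at 0 TPM, and its middle position among the lncRNA genes tied with it was the percentile 29.9.

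**Figure D1:**
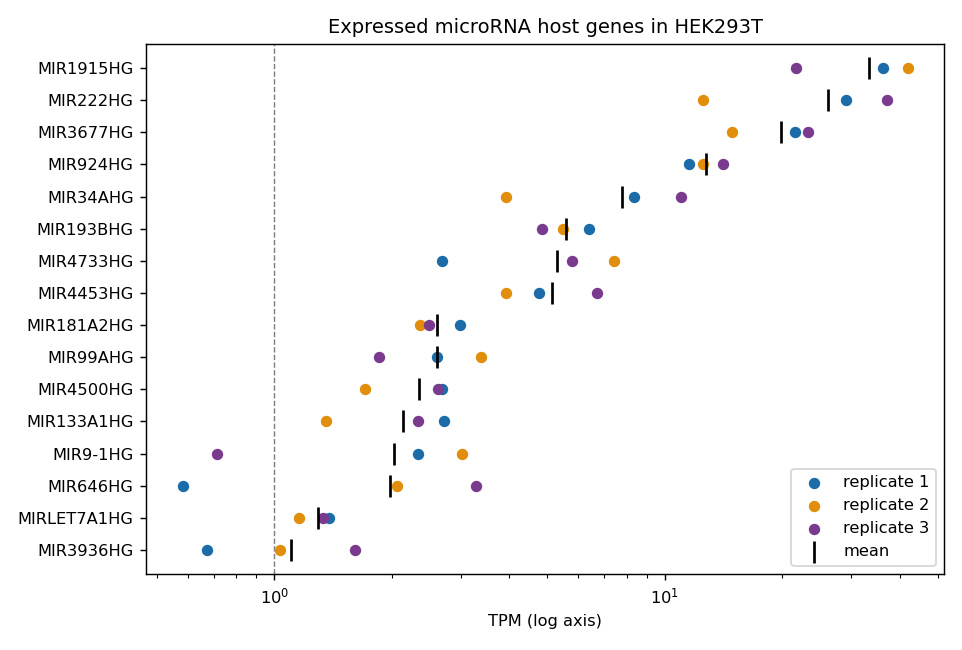
TPM of the 16 expressed microRNA host genes in each HEK293T replicate (points, log axis), with the mean over the 3 replicates as a bar and the threshold of 1 TPM as a dashed line. MIR1915HG, MIR222HG, MIR3677HG and MIR924HG lie above 10 TPM in every replicate, and MIR9-1HG, MIR646HG and MIR3936HG each have a replicate under 1 TPM.

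MIR1915HG (ENSG00000204682), at chr10:21490272-21497260 of GRCh38 (minus strand), was the most abundant member by the mean. It had 36.1, 41.9 and 21.6 TPM in replicates 1, 2 and 3 (33.2 ± 10.5 TPM, SD, n = 3) from 623, 611 and 548 counts. Replicate 3 was the lowest, and all counts fell on the only listed transcript, in whose intron the hairpin of MIR1915 lies 3904 bases before the 3′ end. This level put it at the percentile 99.1 of all lncRNA genes.

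MIR222HG (ENSG00000270069) encodes the pair of microRNAs known to repress the cell cycle inhibitor CDKN1B. It lies at chrX:45745210-45770274 (minus strand), and had 29.2, 12.5 and 36.9 TPM in replicates 1, 2 and 3 (26.2 ± 12.5 TPM, SD, n = 3) from 185, 68 and 346 counts. It was above MIR1915HG in replicate 3 and below it in the others, and the mean levels of these neighbours differed by 7.04 TPM, less than the larger SD. The spliced transcript ENST00000602461.1 carried 91.7% of the counts. MIR221 and MIR222 lie in its intron, 946 and 1804 bases before its 3′ end.

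MIR3677HG (ENSG00000260778), at chr16:2268155-2273418 (plus strand), had 21.5, 14.9 and 23.2 TPM (19.9 ± 4.39 TPM, SD, n = 3) from 53, 31 and 84 counts. Its counted transcript is short, with 543 bases, and holds MIR3677 and MIR940 in its intron. MIR924HG (ENSG00000267374), which spans chr18:39206917-39800322 (minus strand), had 11.6, 12.5 and 14.1 TPM (12.7 ± 1.27 TPM, SD, n = 3) from 57, 52 and 108 counts. Its counts were spread over 11 of 56 listed transcripts, with 43.8% on the leading one. In the order of mean TPM, MIR3677HG was above MIR924HG in every replicate, and MIR924HG was above MIR34AHG in every replicate. The only other pair of neighbours in the order for which this held was MIR4453HG above MIR181A2HG. The remaining neighbours among the members named differed by less than the larger of their SDs.

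MIR34AHG (ENSG00000228526) is the host of miR-34a, a microRNA known to slow the cell cycle. It lies at chr1:9148011-9198906 (minus strand). It had 8.35, 3.93 and 11.0 TPM (7.76 ± 3.57 TPM, SD, n = 3) from 160, 64 and 309 counts, lowest in replicate 2 and highest in replicate 3. The transcript ENST00000635687.1 carried 96.1% of these counts, and MIR34A lies in its last exon, 3657 bases before the 3′ end. The hairpin is thus part of the spliced transcript as annotated. LNCTAM34A, a lncRNA gene on the opposite strand at this locus, had 9, 19 and 63 counts and no exon over the last 300 bases of that transcript.

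MIR193BHG (ENSG00000262454), at chr16:14301389-14331067 (plus strand), had 6.41, 5.49 and 4.83 TPM (5.58 ± 0.790 TPM, SD, n = 3) from 156, 113 and 173 counts. All counts were on 1 of 19 listed transcripts, which holds MIR193B and MIR365A in its intron, 27018 and 21696 bases before the 3′ end. Its paralog MIR365BHG, whose microRNAs share both seeds of the miR-365 hairpin, had 0 counts. In TPM replicate 1 was the highest, while replicate 3 had the most counts.

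MIR4733HG (ENSG00000264107) had 2.69, 7.42 and 5.79 TPM (5.30 ± 2.40 TPM, SD, n = 3) from only 6, 14 and 19 counts on a transcript of 492 bases. Its last 300 bases overlap an exon of NF1 on the opposite strand, which had 156, 95 and 253 counts, and because the strand setting of the counting is not known, reads of the 2 genes cannot be told apart there. Among the other members with at least 10 counts, none had an exon of a gene on the opposite strand over the last 300 bases of its leading transcript. MIR4453HG (ENSG00000268471), a single exon at chr4:152536264-152539263 (plus strand), had 4.77, 3.91 and 6.70 TPM (5.13 ± 1.43 TPM, SD, n = 3) from 65, 45 and 134 counts. Its hairpin lies in the exon, 2747 bases before the 3′ end.

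The other 8 expressed members had means between 1.11 and 2.62 TPM and totals between 26 and 95 counts. MIR181A2HG, the host of miR-181a-2 and miR-181b-2, had 2.62 ± 0.334 TPM (SD, n = 3) from 9, 6 and 11 counts. MIR133A1HG, the host of the muscle microRNAs miR-1-2 and miR-133a-1, had 2.14 ± 0.705 TPM (SD, n = 3) from 22, 9 and 27 counts. MIR9-1HG, the host of the neural microRNA miR-9, had 2.02 ± 1.19 TPM (SD, n = 3) from 10, 15 and 13 counts. All 3 were therefore detected in every replicate at a low level. MIR646HG had 0.583, 2.07 and 3.29 TPM, and MIR3936HG had 0.672, 1.04 and 1.61 TPM. These members crossed 1 TPM between replicates, and without replicate 3 the mean of MIR3936HG was 0.854 TPM.

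The division by length moved several hosts in the order. A read of a 3′ library comes from the end of the transcript whatever its length, so the TPM of a long transcript is lowered. MIR23AHG (ENSG00000267519), the host of the miR-23a, miR-27a and miR-24-2 cluster on chromosome 19, had 32, 12 and 41 counts on a single-exon transcript of 19049 bases. Its level was 0.370, 0.164 and 0.323 TPM (0.286 ± 0.108 TPM, SD, n = 3), at rank 24 of the members by TPM and rank 11 by CPM. MIR29B2CHG (ENSG00000203709), the host of miR-29b-2 and miR-29c, had 47, 22 and 109 counts and 0.858, 0.379 and 1.08 TPM (0.772 ± 0.358 TPM, SD, n = 3), which placed it at rank 17 by TPM and rank 7 by CPM. MIRLET7IHG moved from rank 18 to rank 9 in the same way. In the opposite direction, MIR4733HG was at rank 7 by TPM and rank 17 by CPM, and MIR181A2HG at rank 9 and rank 19. MIR1915HG and MIR222HG were at ranks 1 and 2 on both scales. With a mean of at least 1 CPM as the threshold, 20 members counted as expressed.

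**Figure D2:**
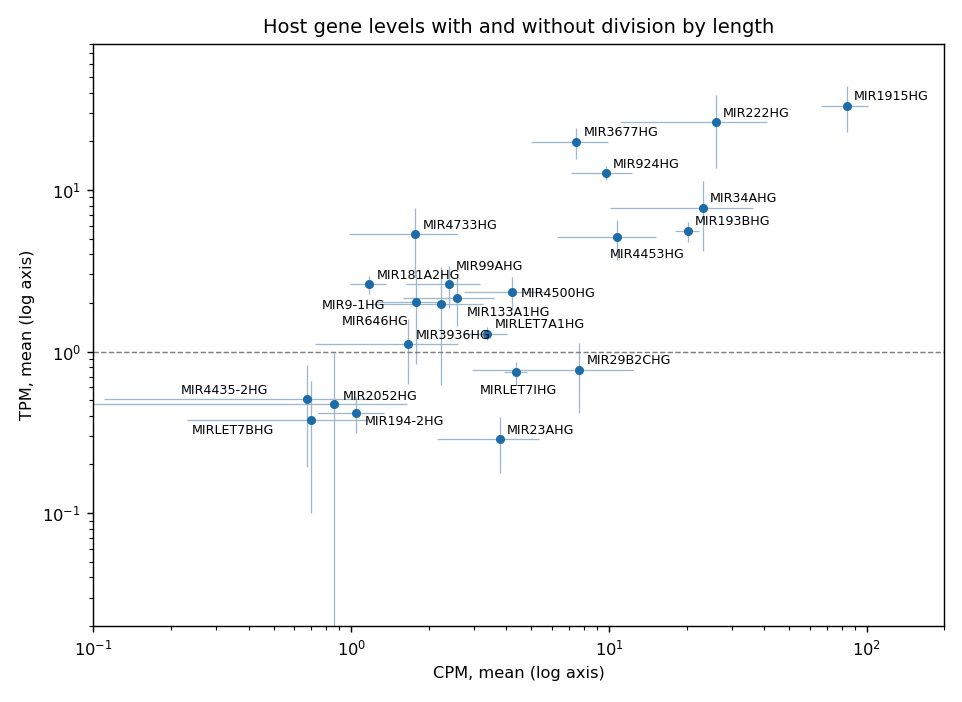
Mean TPM against mean CPM of the 23 members with at least 10 counts (log axes), with bars of 1 SD over the 3 replicates, cut where they run past the left or lower edge of the plot. MIR23AHG, MIR29B2CHG and MIRLET7IHG lie under the dashed line at 1 TPM although each has over 3 CPM.

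Of the members below 1 TPM, 7 had at least 10 counts in all, MIR29B2CHG, MIRLET7IHG and MIR23AHG among them. MIR194-2HG, the host of miR-192 and miR-194-2, which are known from kidney and gut, had 0.418 ± 0.103 TPM (SD, n = 3) from 5, 7 and 11 counts. MIR4435-2HG had 9, 1 and 5 counts, MIR2052HG had 12, 1 and 6 counts, and MIRLET7BHG had 7, 1 and 8 counts. These 3 members had a single count in replicate 2. The means were 0.509 TPM for MIR4435-2HG and 0.474 TPM for MIR2052HG, and MIRLET7BHG had 0.542, 0.0572 and 0.540 TPM. MIR17HG (ENSG00000215417), at chr13:91347686-91397592 (plus strand), had 2, 0 and 3 counts, which is 0.402, 0 and 0.410 TPM (0.271 ± 0.235 TPM, SD, n = 3). No replicate was above 3 counts, so the polyadenylated host of the miR-17-92 cluster was at the limit of detection at this depth. Another 16 members, each with 1 to 7 counts in all, had means of at most 0.443 TPM.

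Hosts that share a seed were uneven. The 7 members with the let-7 seed had 106, 76 and 153 counts together, and their summed level was 7.41 ± 0.585 TPM (SD, n = 3). MIR99AHG had 2.61, 3.38 and 1.85 TPM, MIR4500HG had 2.69, 1.71 and 2.63 TPM, and MIRLET7A1HG had 1.38, 1.16 and 1.33 TPM. These 3 hosts were above 1 TPM in every replicate and, with means of 2.62 ± 0.765, 2.34 ± 0.547 and 1.29 ± 0.117 TPM (SD, n = 3), held most of the family's TPM. MIRLET7IHG had 0.862, 0.750 and 0.621 TPM from 34, 25 and 36 counts, below 1 TPM in every replicate. Its transcript has 8693 bases, and without division by length it had the highest mean of the 7 hosts, 4.35 ± 0.440 CPM (SD, n = 3). MIR4500HG, MIRLET7A1HG and MIR99AHG had 4.21 ± 1.46, 3.37 ± 0.639 and 2.39 ± 0.755 CPM (SD, n = 3). MIR100HG had a single count, in replicate 3, and MIR4458HG had 0 counts.

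In 5 pairs of paralogous hosts, MIR193BHG and MIR365BHG among them, 1 locus carried nearly all counts. MIR181A2HG had 26 counts and MIR181A1HG had 0, MIR133A1HG had 58 and MIR1-1HG had 0, and MIR9-1HG had 38 and MIR9-3HG had 0. MIR99AHG had 53 counts and MIR100HG had 1. MIRLET7A1HG and MIRLET7BHG, which also share the seed UAUACAA, were less uneven, with 75 and 16 counts. Members without expression were named only for sharing a seed with a named member, which favours uneven pairs. No count was seen in 51.8% of all members and in 59.8% of all lncRNA genes. Counts within a pair compare the libraries' reads and not levels per length. A count of 0 does not show that the second locus is silent. MIR9-3HG has no listed transcript with a base of its own in its last 300 exonic bases, and MIR1-1HG has at most 1% of them, whereas MIR181A1HG has a listed transcript whose last 300 bases are all its own. Of the 166 distinct seeds among the mature sequences used here, 16 were shared by several hosts.

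The hairpins and the counted 3′ ends were often apart. In the 23 members with at least 10 counts, which are 27.7% of the members, compared with 18.7% of all lncRNA genes and 24.5% of all genes, 42 hairpins were annotated. The leading transcript, the one with the most counts, held 14 of these hairpins in an exon and 16 in an intron, started after 2 of them and ended before 10. It spanned every hairpin in 17 members and none in the other 6, which were MIR99AHG, MIR133A1HG, MIR9-1HG, MIR646HG, MIR29B2CHG and MIR4435-2HG. Distances were taken from the 3′ end of the hairpin to the 3′ end of the transcript.

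In MIR29B2CHG, 177 of the 178 counts (99.4%) were on ENST00000608023.5, which ends 13633 bases before MIR29B2 and 14224 bases before MIR29C. No listed transcript that spans these hairpins carried a count. The canonical transcript, which holds them in an intron, is not listed and could take no count. In MIR133A1HG, 98.3% of the counts were on the single-exon transcript ENST00000664484.1, which ends 677 bases before MIR1-2 and 3983 bases before MIR133A1. The counted transcript of this host thus does not contain the hairpins of the muscle microRNAs in its annotated extent. In MIR9-1HG, 52.6% of the counts were on a single-exon transcript that starts after the hairpin, and 0% were on transcripts that span it. The 5 counts of MIR17HG were on ENST00000659898.1, which ends 115 bases before MIR17 and 818 bases before MIR92A1. The canonical transcript of MIR17HG, which holds the cluster in an intron, is not listed either. The last 300 exonic bases of these leading transcripts of MIR29B2CHG, MIR9-1HG and MIR17HG are wholly shared with other listed transcripts, so their counts need not come from these 3′ ends, and reads of transcripts that span the hairpins may be unassigned. In contrast, all 75 counts of MIRLET7A1HG were on a transcript with let-7a-1, let-7f-1 and let-7d in its exon, 3528, 3131 and 644 bases before the 3′ end. Only 22% of the last 300 exonic bases of this transcript are its own, so the same limit holds in part. The canonical transcript of MIRLET7A1HG, which has let-7f-1 and let-7d in an intron, is not listed and could take no count. All 85 counts of MIR23AHG were on an exon that, as annotated, holds its hairpins, 12407 to 12707 bases before the 3′ end. Reads of a 3′ library do not show that the counted RNA reaches these hairpins.

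**Figure D3:**
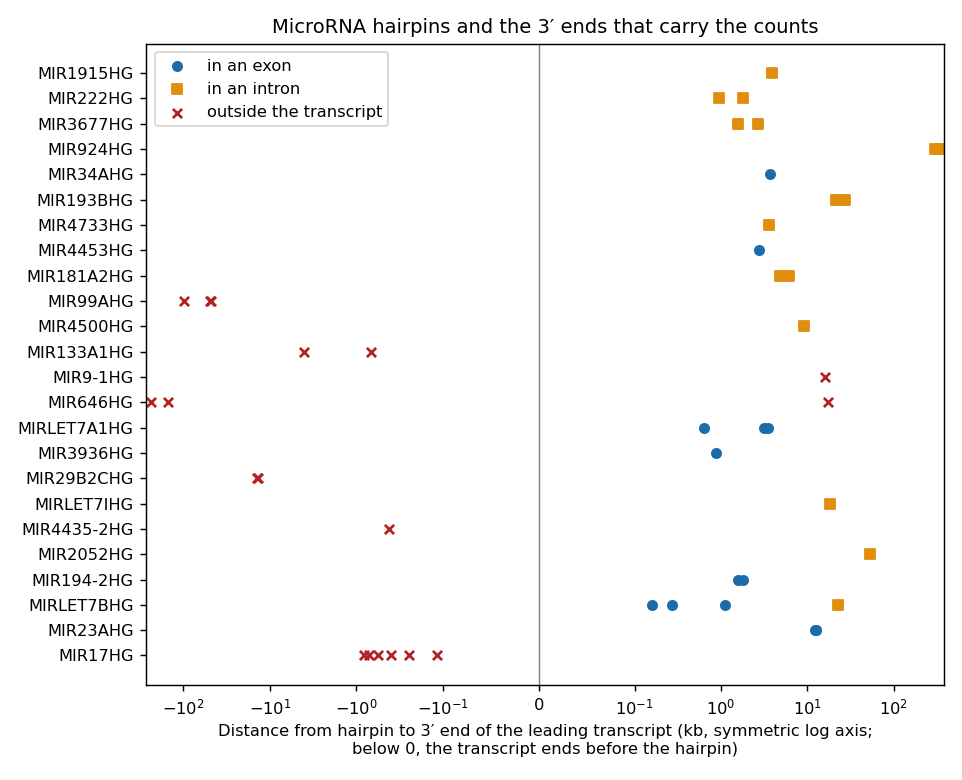
Distance in kb from the 3′ end of each microRNA hairpin to the 3′ end of its host's leading transcript (symmetric log axis) for the 23 members with at least 10 counts and MIR17HG. Circles and squares are hairpins in an exon or an intron of that transcript, and crosses are hairpins outside it, left of 0 where the transcript ends before the hairpin and right of 0 where it starts after it.

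The hairpin genes themselves were nearly without reads. Of the 131 microRNA genes in the members, 2 had a count (1.53%), compared with 2.98% of all 1877 microRNA genes in the tables. MIR302D, a microRNA of embryonic stem cells, had 3, 2 and 1 counts, while its host MIR302CHG had 1, 0 and 0. MIR181B1 had 0, 1 and 0 counts, while its host MIR181A1HG had none. Their levels are therefore at or under the limit of 3 counts in every replicate, and mature microRNAs were not measured by these libraries.

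Several hosts differed between replicates by more than counting error. Nuclear CPM, which leave mitochondrial reads out of the total, were compared with exact 95% Poisson intervals, and this comparison was chosen after the values were seen. MIR222HG had 29.2, 11.5 and 54.7 in replicates 1, 2 and 3, MIR34AHG had 25.2, 10.8 and 48.9, and MIR29B2CHG had 7.41, 3.73 and 17.2. Replicate 3 was thus 4.75, 4.51 and 4.63 times replicate 2 at these 3 hosts. MIR23AHG had 5.04, 2.03 and 6.49 nuclear CPM, or 3.19 times, and MIR4453HG had 10.2, 7.62 and 21.2, or 2.78 times. MIR1915HG went the other way, with 98.2, 103 and 86.7, or 0.838 times.

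Of the 23 members with at least 10 counts, the interval of replicate 3 lay wholly above that of replicate 2 in 9 (39.1%), compared with 24.4% of lncRNA genes and 21.4% of all genes with at least 10 counts. It lay wholly below in 1 member (4.35%), compared with 1.64% and 8.63%. The order from replicate 2 as the lowest over replicate 1 to replicate 3 as the highest was seen in 14 members (60.9%), in 40.0% of these lncRNA genes and in 32.7% of all these genes. The members with the higher interval in replicate 3 were MIR222HG, MIR3677HG, MIR924HG, MIR34AHG, MIR193BHG, MIR4453HG, MIR4500HG, MIR29B2CHG and MIR23AHG. The scaling bears on this. In TPM, MIR193BHG was lower in replicate 3 than in replicate 2, and the other 8 were higher but each by a smaller factor. Replicate 3 was also the library with the largest mitochondrial share and replicate 2 the one with the smallest, and the part of this share in the differences was not tested.

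**Figure D4:**
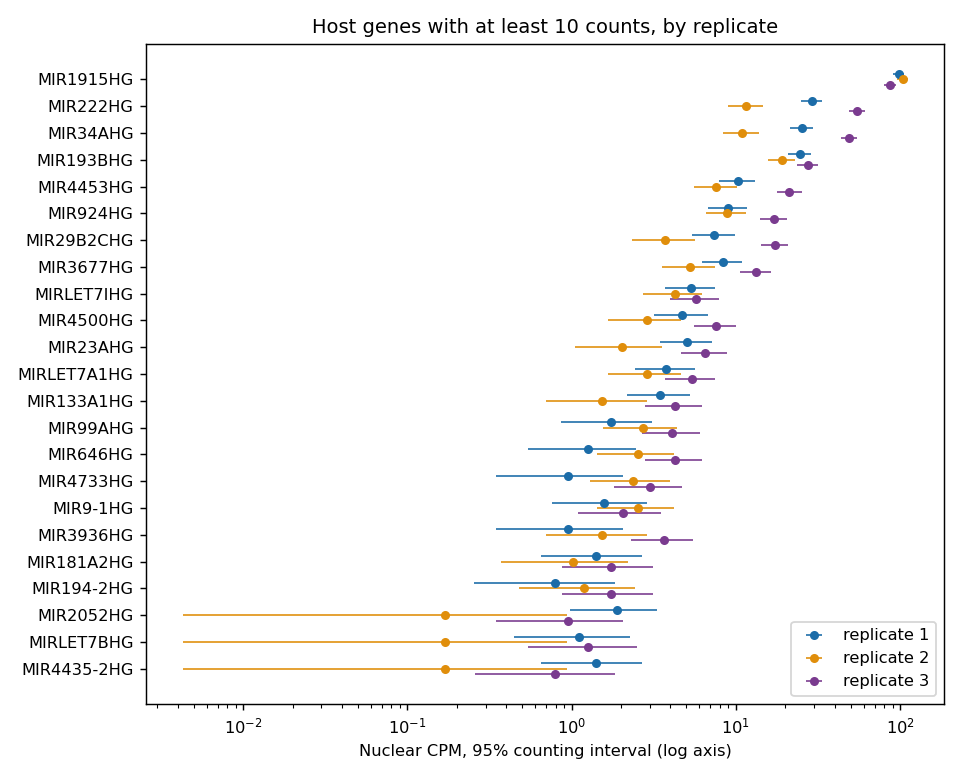
Nuclear CPM (counts per 1000000 nuclear counts) of the 23 members with at least 10 counts in each HEK293T replicate (log axis), with exact 95% Poisson intervals that cover counting error only. MIR222HG, MIR34AHG and MIR29B2CHG have separate intervals for replicates 2 and 3, MIR1915HG is lowest in replicate 3, and the lowest 3 members have a single count in replicate 2.

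Some members without a count had 3′ ends that are shared with other transcripts. A 3′ end was described by the last 300 exonic bases of each listed transcript and by how many of them are free of any other listed transcript of that strand, taking the best transcript of the gene. A read from shared bases may not be assigned to any transcript, depending on settings that are not given in the sources used here. A count was seen in 28 of 54 members with a 3′ end wholly their own (51.9%), in 11 of 23 with one partly their own (47.8%) and in 1 of 6 with no base of their own (16.7%). For all lncRNA genes these shares were 43.7%, 26.3% and 11.5%. Of the 43 members without a count, 26 had a 3′ end wholly their own on some transcript, 12 a partly shared one and 5 no base of their own.

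The 5 members without a count or an own base were MIR155HG, MIR223HG, MIR3142HG, MIR493HG and MIR9-3HG, of which MIR155HG and MIR223HG are known from lymphoid and myeloid cells. MIR22HG and MIR210HG, hosts of a widely expressed and of a hypoxia-induced microRNA, had 18.3% and 1% of the last 300 bases to themselves at best and 0 counts as well. By comparison, MIR122HG, the host of the liver microRNA miR-122, MIR142HG of blood cells, MIR137HG of neurons and MIR200CHG of epithelia had a 3′ end wholly their own and 0 counts. Apart from MIR9-3HG, these members were named after their values were seen. MIR1302-2HG and MIR1302-9HG lie in duplicated sequence near chromosome ends, and their 0 and 5 counts are uncertain.

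**Figure D5:**
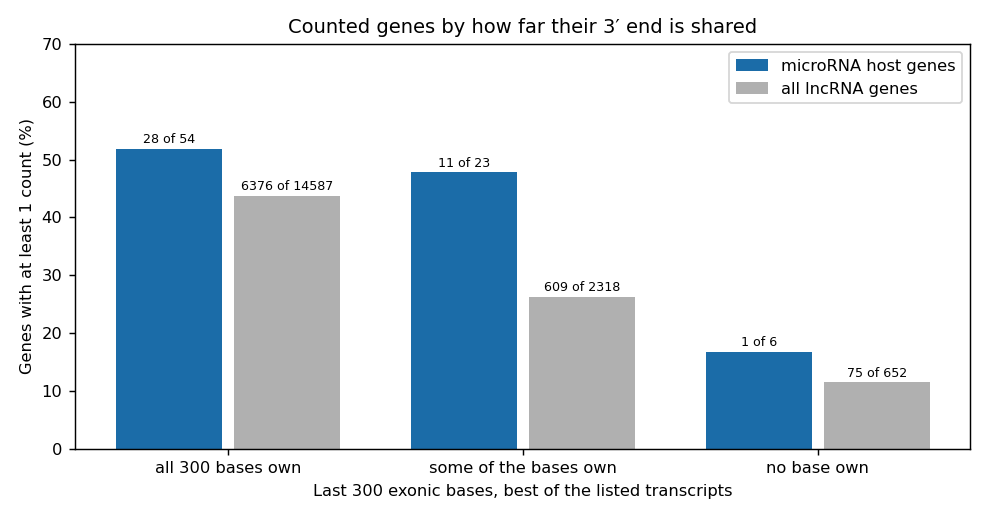
Share of genes with at least 1 count, in percent, for microRNA host genes and all lncRNA genes, grouped by how many of the last 300 exonic bases are free of any other listed transcript of that strand in the best transcript of the gene. The share of counted members falls from 28 of 54 over 11 of 23 to 1 of 6, and that of all lncRNA genes from 43.7% to 11.5%.

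The study maps iMs and G4s, non-canonical structures of C-rich and of G-rich DNA whose sequences lie opposite each other on the complementary strands, so the promoters of the members were searched for sequences able to form them. A putative sequence had 4 runs of at least 3 C or, on the other strand, G, with 0 to 7 bases between runs, and was searched on both strands within 1 kb of the transcription start site (TSS) of the canonical transcript. It was found at 45 of 83 members (54.2%), at 41.2% of all lncRNA genes and at 44.7% of all genes. Among expressed members it was found at 11 of 16 (68.8%), compared with 53.0% of expressed lncRNA genes, and among members without a count at 21 of 43 (48.8%), compared with 37.0% of lncRNA genes without a count. These are shares of promoters with such letters and no measure of folding, and they were not tested against each other.

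Of the members with a match, 3 abundant ones are shown with 1 match each, written from the strand with the C runs and with these runs in capitals. The match of MIR1915HG, at chr10:21497158-21497175 on the plus strand, is centred 95.5 bases upstream of this TSS, but inside the transcript that carried the counts, which starts further upstream. That of MIR222HG, at chrX:45770214-45770240 on the plus strand, is centred 47 bases downstream. The match of MIR34AHG, at chr1:9182437-9182459 on the minus strand, is centred 56 bases upstream.
MIR1915HG: CCCCCaCCCCCCaCCCCC
MIR222HG: CCCCCgCCCCacacaCCCCCagCCCCC
MIR34AHG: CCCCgcaCCCCacgccgCCCCCC

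MIR193BHG and MIR1915HG each had 7 matches in the window, MIR34AHG had 5 and MIR222HG had 2. The most were at MIR23AHG, with 12, and at MIR4733HG, with 9, so that the number of matches did not follow the TPM of these members. Of the expressed members, MIR3677HG, MIR99AHG, MIR133A1HG, MIR9-1HG and MIR646HG had none. MIR17HG had 2 matches, both downstream of the TSS.

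The genes around the pathway were read from lists written from general knowledge. Of 23 genes of microRNA processing and function, 16 had a mean of at least 1 TPM, 4 had counts under it and 3 (RAN, TARBP2 and LIN28A) had no count. At best 28%, 4.67% and 3% of the last 300 exonic bases of these 3 genes lie in a single listed transcript, and RAN is a nuclear transport factor that dividing cells need, so these 0 counts do not show absence. The highest were KHSRP, a binder of microRNA precursors, with 2864 ± 1176 TPM, the helicase DDX5 with 44.8 ± 13.4 TPM, the slicing Argonaute AGO2 with 44.1 ± 15.2 TPM and LIN28B, which blocks the maturation of let-7, with 40.8 ± 14.8 TPM (SD, n = 3). At best 1% of the last 300 exonic bases of DDX5 lie in a single listed transcript, so its level may be too small. The core nucleases had 5.70 ± 3.09 TPM for DROSHA and 4.50 ± 1.15 TPM for DICER1 (SD, n = 3), but only 1% and 0% of the last 300 exonic bases of their canonical transcripts lie in a single listed transcript, so these levels may be too small. The 7 let-7 hosts together were thus below LIN28B in every replicate.

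MicroRNAs also lie in protein-coding and other host genes, and 33 of these were listed. Of them 19 had a mean of at least 1 TPM and 7 had no count. The highest were COPZ1, host of miR-148b, with 385 ± 82.9 TPM, IARS2 with 319 ± 37.0 TPM, CTDSP1, host of miR-26b, with 109 ± 4.40 TPM and CTDSP2, host of miR-26a-2, with 82.5 ± 5.92 TPM (SD, n = 3). Each was above the most abundant member, MIR1915HG, in every replicate. The 7 without a count were IGF2, H19, EGFL7, ARPP21, DALRD3, HNRNPK and PDE2A. EGFL7 and DALRD3 have no base of their own in the last 300, and H19 has at best 2.67% of them. HNRNPK is an abundant RNA-binding protein gene of most cells. A listed transcript of it has a 3′ end wholly its own, while its canonical transcript has 0% of these bases to itself. An own end on some transcript of a gene thus does not make a count of 0 a sign of absence. Of the transcription factors known to act on MIR17HG, E2F1 had 83.0 ± 29.7 TPM and E2F2 32.8 ± 5.57 TPM (SD, n = 3). MYC had 3, 14 and 9 counts, E2F3 had 3, 0 and 2 counts and MYCN had none, with at best 0% and 1% of the last 300 bases of these 2 genes in a single listed transcript.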

How the data were processed

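Total RNA of HEK293T cells was sequenced in 3 replicates with a QuantSeq 3′ mRNA-seq kit. The authors deposited 1 table per replicate that holds, for every transcript, the raw counts of reads as whole numbers, the length in bases and the TPM. The deposited TPM was each count over the transcript length, scaled to sum to 1000000 in a library. Per the labels and the submitters' processing notes, reads were trimmed with Trimmomatic 0.38.0, aligned with HISAT2 2.2.1 to hg38 and counted with featureCounts 2.2.1. The strand setting and the handling of reads on several transcripts are not given in the sources used here.

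Of the 247541 transcripts, 223558 had an identifier in GENCODE v44 (GRCh38) once the version was removed, and 210256 of these had the same length there. Deposited counts and TPM were summed per gene, and SDs are over the replicates (n = 3). The libraries held 6262175 to 8521624 counts, and 0 counts leave up to 3 possible. Exact 95% Poisson intervals were used for counts, and the calls at 1 TPM were tested on simulated data. Of 200 planted genes, 199 fell on the right side of 1 TPM. The simulation had Poisson error only and planted no genes with few counts. It therefore does not cover members with few counts, spread between replicates or shared 3′ ends. With 1 condition no groups were compared and no p-value is given. The replicates are biological and independent per the study's methods.

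The members named are those with a mean of at least 1 TPM or at least 10 counts, MIR17HG, and members without expression that share a seed with one of them. Of each list of related genes, the 4 highest and those with 0 counts are named, and DROSHA, DICER1, E2F3 and MYC were added. The members and lists were chosen with earlier results of these data known, and the lists are from general knowledge. The values of 1 gene of these lists and 1 of the sequence matches found are not reported here. The sequence search used the tract and loop lengths of the study's middle stringency, on promoter windows rather than peaks and without its reshuffled regions. Alternatives were other thresholds, CPM without division by length, mitochondrial genes left out, each replicate left out in turn, other overlap rules for hairpins, and other loop lengths and numbers of tracts. Python 3.11.15, numpy 2.4.6, pandas 2.3.3, scipy 1.17.1 and matplotlib 3.10.9 were used.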

Additional observations from a re-analysis of the deposited data

How the results depend on the processing

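No paired analysis was possible because only 1 condition was sequenced. The number of expressed members was 40 with a mean TPM above 0 and 4 with a mean of at least 10 TPM, compared with 16 at 1 TPM. It was 18 with mitochondrial genes left out, and ran from 15 to 16 with a replicate left out. Members without a count then ran from 46 to 47. The summed level of 138 TPM became 198 TPM after removing mitochondrial genes and rescaling TPM, and 223 CPM without division by length, and ran from 133 to 146 TPM with a replicate left out. The middle position among lncRNA genes, 29.9, ran from 31.3 to 32.7 with a replicate left out, since more genes are then tied at 0. The cause of the other changes was not tested. The number of members with a putative sequence was 55 with loops of up to 12 bases and 35 with 5 tracts, compared with 45.

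Single replicates decided several levels. With a replicate left out in turn, the mean ran from 20.8 to 33.0 TPM for MIR222HG, from 6.14 to 9.67 TPM for MIR34AHG, both lowest without replicate 3 and highest without replicate 2, from 4.24 to 6.61 TPM for MIR4733HG, from 1.52 to 2.68 TPM for MIR9-1HG, from 1.32 to 2.68 TPM for MIR646HG, from 0.618 to 0.968 TPM for MIR29B2CHG, from 0.393 to 0.688 TPM for MIR4435-2HG, from 0.188 to 0.650 TPM for MIR2052HG, from 0.299 to 0.541 TPM for MIRLET7BHG and from 0.201 to 0.406 TPM for MIR17HG. MIR3936HG, with 0.854 to 1.32 TPM, was the only named member that crossed 1 TPM in this way. Levels from fewer than 10 counts per replicate are limited by depth.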

Other observations

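MIR3171HG has the name of a host gene but is annotated as a transcribed processed pseudogene, so it fell outside the rule, and it had 0, 0 and 2 counts. Outside the host genes, the microRNA genes with the highest mean TPM were MIR1244-2, with 617, 599 and 505 counts, and MIR1244-3, with 50, 40 and 43 counts, and as copies of each other their counts are uncertain. MIR10B, which lies outside the members as well, had 17, 8 and 35 counts, or 33.6 ± 14.4 TPM (SD, n = 3). Their hairpins are so short that division by length gives them a high TPM, and which longer transcript the reads came from was not tested.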
